A study of Mus musculus with 6 samples.

Results

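UDP-glucuronosyltransferases (UGTs) were examined through 10 gene symbols, Ugt1a1, Ugt1a6a, Ugt2a3, Ugt2b1, Ugt2b5, Ugt2b34, Ugt2b35, Ugt2b36, Ugt3a1 and Ugt3a2. They were taken by symbol from a table of 117486 transcripts with 35970 symbols, and their 22 transcripts were summed per symbol. The table held 12 other UGT symbols, which served for comparison. The libraries came from livers of Fah-/-;dCas9+ mice, in which Fah, needed for the last step of tyrosine breakdown, is missing and a cleavage-dead Cas9 is present. All mice had been kept on 7.5 µg/mL nitisinone, a drug that protects Fah-deficient hepatocytes, until 10 µg of a transposon plasmid was injected by the hydrodynamic tail vein route. The plasmid held Fah, the ribosomal protein L10a fused to GFP, and a guide RNA. It was mixed with an AAV8 virus carrying Cre under TBG, a promoter used for hepatocytes. Nitisinone was then withheld, so that hepatocytes with the plasmid could repopulate the liver. The guide was directed at Neurl1b in 3 mice (Neurl1b CRISPRi, where the dead Cas9 blocks transcription of the target) and was non-targeting in the other 3. Livers were taken after 4 weeks, tagged ribosomes were pulled down from 400 mg of tissue with an antibody to GFP, and the poly(A) RNA bound to them was sequenced (TRAP-seq). The sources used here give neither age nor sex.

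UGTs are enzymes of the endoplasmic reticulum that transfer a sugar, mostly glucuronic acid from UDP-glucuronate, to small lipophilic molecules, which can then leave in bile or urine. The liver uses them to clear bilirubin, steroids, bile acids, thyroid hormone and many drugs. The Ugt1a enzymes come from a single locus in which separate starting exons are joined to a shared set of later exons, whereas each Ugt2b enzyme has a gene of its own. In the annotation used for sequence comparison, the Ugt1a genes lie on chromosome 1, the Ugt2a and Ugt2b genes on chromosome 5 and the Ugt3a pair on chromosome 15.

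The build of the Ugt1a transcripts limits what short reads can tell about each of them, and the coding sequence around the splice junction shows this. In the lines that follow (GENCODE vM21, GRCm38, coding strand), lower case marks the last 24 coding bases of each transcript's own part and capitals mark the beginning of the shared exons.
Ugt1a1: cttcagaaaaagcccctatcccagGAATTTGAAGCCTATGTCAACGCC
Ugt1a5: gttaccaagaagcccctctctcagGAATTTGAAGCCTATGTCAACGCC
Ugt1a6a: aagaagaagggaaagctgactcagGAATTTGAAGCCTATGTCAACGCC
Ugt1a9: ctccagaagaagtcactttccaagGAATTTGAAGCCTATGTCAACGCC
The capitals are the same in all 4, and the last 738 coding bases are identical between Ugt1a1 and Ugt1a6a. Their parts before the junction were 56.9% identical. The junction of Ugt1a6b has the same letters as that of Ugt1a6a, and the parts before it were 97% identical.

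The Ugt2b promoters share a short motif, shown because it sits at a like distance from the start of the genes whose levels are compared here. The motif GTTA followed by any 4 bases and TTAAC, which has the letters of a binding sequence of the liver factor HNF1, was searched on both strands in the 250 bases before and 50 bases after each start (RefSeq, GRCm38.p6). It was chosen after the sequences had been read. In these windows of 43 bases capitals mark the match.
Ugt2b1: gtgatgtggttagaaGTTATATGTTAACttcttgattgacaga
Ugt2b5: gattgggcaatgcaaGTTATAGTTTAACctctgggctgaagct
Ugt2b34: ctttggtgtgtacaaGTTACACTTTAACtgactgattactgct
Ugt2b35: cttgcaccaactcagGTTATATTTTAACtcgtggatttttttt
Ugt2b36: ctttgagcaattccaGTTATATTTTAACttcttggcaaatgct
Ugt3a1: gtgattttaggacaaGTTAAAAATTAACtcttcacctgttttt
The windows lie at chr5:86926565-86926607 (minus strand) for Ugt2b1, chr5:87140374-87140416 (minus) for Ugt2b5, chr5:86906983-86907025 (minus) for Ugt2b34, chr5:87000775-87000817 (plus) for Ugt2b35, chr5:87092592-87092634 (minus) for Ugt2b36 and chr15:9279684-9279726 (plus) for Ugt3a1. The match begins 89 bases before the start of Ugt2b1, between 61 and 73 bases before the start in the other Ugt2b members and 130 bases before that of Ugt3a1. Ugt2b37 and Ugt2b38, which are not members, also carried it, at 78 and 64 bases before the start. Their means over all libraries were only 0.704 and 0.58 TPM. The match was present in 6 of the 9 member promoters in the table and in 62 of 32851 promoters of all genes (0.189%). Because the motif was chosen from sequences already read, these shares do not measure an enrichment. Other motifs were also searched in the 9 member promoters. A half-site of HNF1 (GTTAAT) was in 4 (7.1% of all promoters) and an element of the oxidative stress factor NRF2 in 3 (41.3%). The core sequence of the aryl hydrocarbon receptor was in 0 (32.4%) and a STAT element in 1 (8.3%). A match is a string of letters and not a measured binding site. Members with a lower and with a higher mean in the CRISPRi mice both carried the motif shown.

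Levels are in TPM, each transcript's portion of its library after allowing for its length. Depth cannot be recovered from TPM, so no counting interval is given. The guide's target Neurl1b, which encodes a ubiquitin ligase, was at 0.295, 0.351 and 0.307 TPM in the Neurl1b CRISPRi mice, against 1.22, 0.897 and 0.688 TPM in the non-targeting mice. The groups did not overlap, and the mean was 2.95-fold higher in non-targeting mice. These are low levels: the mean of Neurl1b over all libraries was 0.627 TPM. That is below the mean of 1 TPM required for testing, so its difference was not tested.

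The non-targeting libraries were not uniform. Across genes, the log2 values of non-targeting mouse 1 correlated at 0.982 to 0.987 with the 3 CRISPRi libraries, and at 0.965 and 0.974 with non-targeting mice 2 and 3. The summed TPM of 10 hepatocyte markers was 23799 to 31563 in the CRISPRi mice, against 27111 to 60581 in the non-targeting mice, with the highest value in non-targeting mouse 2. That of 9 stellate cell markers was 38.3 to 50.4 TPM in the CRISPRi mice and 17 to 31.3 TPM in the non-targeting mice, without overlap. Macrophage markers (8 genes) summed to 63.5 to 96.1 TPM in the CRISPRi mice and 43.9 to 73.7 TPM in the non-targeting mice. The hepatocyte and macrophage sums overlapped between the groups, and so did the endothelial, cholangiocyte and lymphocyte sums. The cholangiocyte marker Cftr and the lymphocyte marker Ms4a1 were below 0.1 TPM in every library. The part of these differences in the UGT values was not tested. The RNA was pulled down with tagged ribosomes, so these sums need not follow the cell make-up of the liver. Fewer cells of a type, less RNA per cell and a different yield of the pull-down cannot be told apart here.

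The comparison asks which UGT transcripts on the tagged ribosomes differed when Neurl1b was repressed. The total did not move beyond the spread between mice. Among the single members, 3 were lower without overlap between the groups and 0 were higher without overlap. The 10 genes summed to 1213, 1100 and 812 TPM in CRISPRi mice 1 to 3, against 1125, 849 and 981 TPM in non-targeting mice 1 to 3. The lowest sum was in a CRISPRi mouse and so was the highest, and the log2 ratio of the means was 0.08. Within the family, Ugt2b1, Ugt3a1 and Ugt3a2 were lower in every CRISPRi mouse than in any non-targeting mouse.

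Tests were run with limma on log2(TPM + 1) over 10598 genes whose mean reached 1 TPM, with p-values adjusted by the Benjamini-Hochberg method over all of them. All 10 members passed this filter. None had an adjusted p below 0.05, where 2 of all genes did (0.0189%). At an unadjusted p below 0.05 there were 2 members, against 13.3% of all genes. They were Ugt2b1, which was lower (3.19% of all genes were lower at this p), and Ugt2b35, which was higher (10.1%). The groups did not overlap in the 3 members just named as lower, where 17.1% of all genes had groups without overlap. By direction, 3 members were lower without overlap against 4.57% of all genes, and 0 were higher without overlap against 12.5% of all genes. The median log2 fold change was -0.04 over the 10 members, against 0.18 over all genes tested. It was below 0 in 5 members, against 26% of all genes. Median-of-ratios scaling moved the median of all genes to -0.0013.

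**Figure D1:**
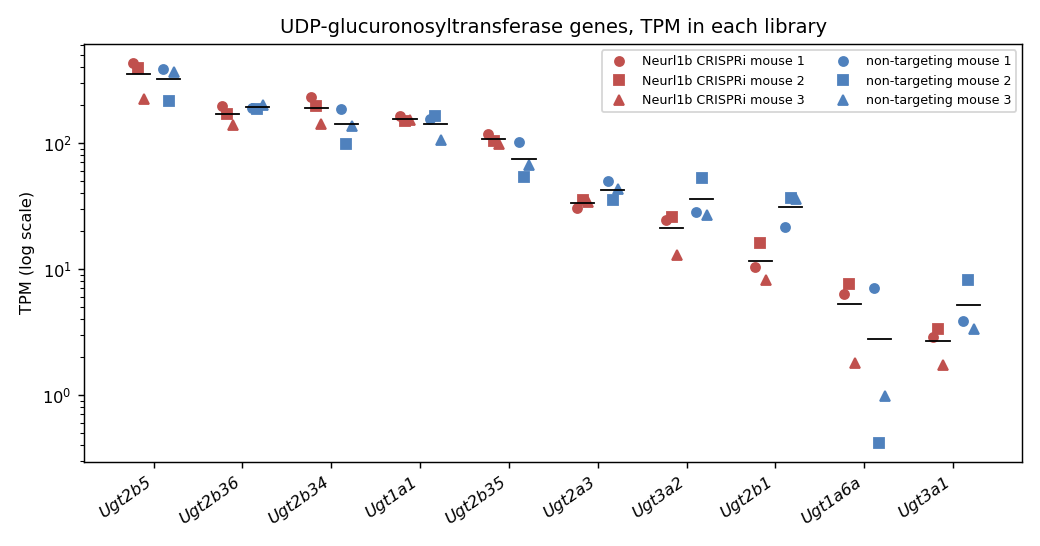
TPM (log axis) of the 10 UGT genes in each library, with Neurl1b CRISPRi mice in red to the left of non-targeting mice in blue, 1 symbol per mouse and a bar at the group mean. The Ugt2b1 values of 8.11 to 15.9 TPM in CRISPRi mice lie below the 21.3 to 36.5 TPM of non-targeting mice, while most abundant members overlap.

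Leaving out non-targeting mouse 1 changed which members passed. Without it, Ugt2b1 (log2 fold change -1.62, limma adjusted p = 0.0197) and Ugt2b35 (0.82, adjusted p = 0.0217) were past the threshold, but so were 25.3% of all genes. With libraries weighted by their quality in limma (array weights), 3 members passed, and so did 2210 of all genes (20.9%).

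The Ugt2b enzymes conjugate steroids, bile acids and drugs, and they made up most of the UGT signal. Ugt2b1, whose rat counterpart is known to conjugate morphine and bisphenol A, showed the clearest difference. It was at 10.4, 15.9 and 8.11 TPM in CRISPRi mice 1 to 3, against 21.3, 36.5 and 35.8 TPM in non-targeting mice 1 to 3. Every CRISPRi mouse was below every non-targeting mouse, and the non-targeting mouse nearest to them was mouse 1. The means were 11.5 ± 4.04 TPM in CRISPRi mice and 31.2 ± 8.57 TPM in non-targeting mice (SD, n = 3 each), 2.72-fold higher in the non-targeting mice. In limma its log2 fold change was -1.38 (SE 0.29, 95% interval -2.04 to -0.72, adjusted p = 0.259), and it ran between -1.96 and -1.13 over all alternatives tried. Of its sequence words of 31 bases, 99.2% occurred in no other gene, so that few of its reads could be shared.

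Ugt2b35 had a higher mean in the CRISPRi mice. It was at 117, 103 and 98.6 TPM in the CRISPRi mice, against 101, 53.6 and 66.6 TPM in the non-targeting mice. CRISPRi mouse 3 was just below non-targeting mouse 1, so the groups overlapped, and non-targeting mice 2 and 3 were the low ones. The means were 106 ± 9.34 TPM in CRISPRi mice and 73.7 ± 24.5 TPM in non-targeting mice (SD, n = 3 each). The limma fit gave a log2 fold change of 0.57 (SE 0.23, adjusted p = 0.364), 0.35 with median-of-ratios scaling and 0.36 without non-targeting mouse 2.

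Ugt2b34 followed the same order of mice. It was at 232, 197 and 140 TPM in the CRISPRi mice, against 185, 98.3 and 137 TPM in the non-targeting mice. Non-targeting mouse 1 was among the high libraries and the groups overlapped. The limma fit gave a log2 fold change of 0.45 (SE 0.27, adjusted p = 0.446), which became 0.22 without non-targeting mouse 2, 0.29 without CRISPRi mouse 1 and 0.23 with median-of-ratios scaling.

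Ugt2b5 was the most abundant member in both groups. It was at 430, 393 and 224 TPM in the CRISPRi mice, against 385, 215 and 363 TPM in the non-targeting mice. Each group held a low mouse, CRISPRi mouse 3 and non-targeting mouse 2, with nearly the same level. In limma its log2 fold change was 0.11 (SE 0.30, 95% interval -0.58 to 0.81, adjusted p = 0.854), and its sign turned in 5 of 18 alternatives. Only 43.6% of its words of 31 bases were its own, and 44.9% were shared with Ugt2b38, which was below a mean of 1 TPM.

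Ugt2b36 was the steadiest of the family in the non-targeting mice. It was at 196, 170 and 139 TPM in the CRISPRi mice, against 189, 186 and 200 TPM in the non-targeting mice. CRISPRi mouse 3 was the lowest and CRISPRi mouse 1 lay among the non-targeting mice. In limma its log2 fold change was -0.20 (SE 0.17, 95% interval -0.58 to 0.19, adjusted p = 0.556), and it was -0.07 without CRISPRi mouse 3, -0.31 without CRISPRi mouse 1 and -0.41 with median-of-ratios scaling.

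Ratios within a library do not depend on how libraries are scaled, and 5 pairs of UGT genes, chosen with their levels known, were compared in this way without a test. The ratio of Ugt2b1 to Ugt2b34 was 0.0446, 0.0811 and 0.058 in the CRISPRi mice, against 0.115, 0.371 and 0.261 in the non-targeting mice. The ratio of Ugt2b1 to Ugt2b35 was 0.0888, 0.154 and 0.0822 in the CRISPRi mice, against 0.211, 0.681 and 0.537 in the non-targeting mice. Both ratios were lower in every CRISPRi mouse, non-targeting mouse 1 again being the nearest. The ratio of Ugt2b36 to Ugt2b5 overlapped, at 0.432 to 0.618 in the CRISPRi mice and 0.491 to 0.865 in the non-targeting mice.

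**Figure D2:**
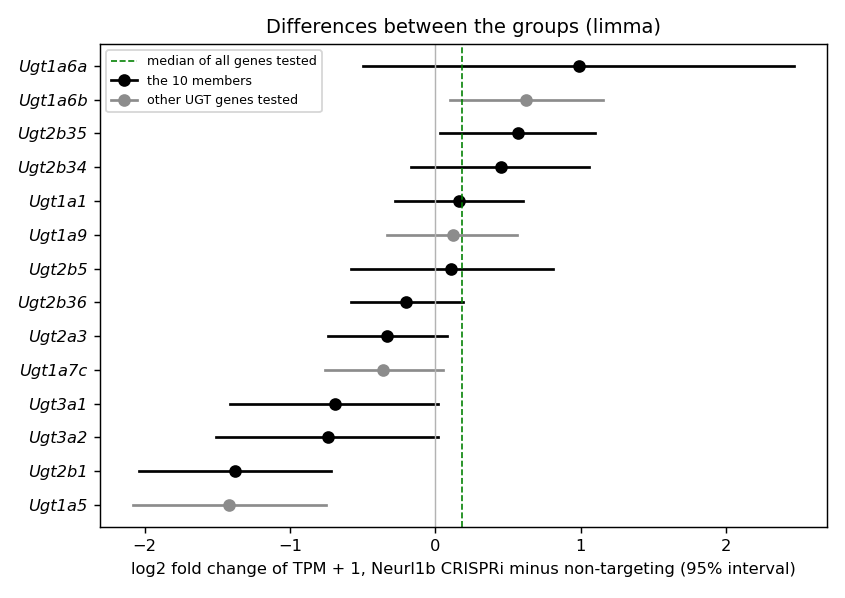
Log2 fold change of TPM + 1 (x axis, Neurl1b CRISPRi minus non-targeting) with its 95% interval from limma for the 10 members in black and the 4 other UGT genes tested in grey, the dashed line marking the median of all genes at 0.18. Ugt1a5 (-1.42) and Ugt2b1 (-1.38) lie farthest to the left, and the intervals of most other genes cross 0.

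Ugt2a3, whose human counterpart conjugates bile acids, lies next to the Ugt2b genes. It was at 30.6, 35.1 and 34.1 TPM in the CRISPRi mice, against 49.8, 35 and 42.6 TPM in the non-targeting mice. CRISPRi mouse 2 and non-targeting mouse 2 had almost the same value, and the other 2 non-targeting mice were higher. By limma, Ugt2a3 had a log2 fold change of -0.33 (SE 0.18, 95% interval -0.74 to 0.08, adjusted p = 0.414), which became -0.54 under median-of-ratios scaling and -0.21 when non-targeting mouse 1 was dropped.

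The Ugt3a enzymes use other sugar donors than most UGTs, in human N-acetylglucosamine from UDP for UGT3A1 and glucose or xylose from UDP for UGT3A2. Ugt3a2 was at 24.2, 25.7 and 12.8 TPM in the CRISPRi mice, against 28.1, 53 and 26.6 TPM in the non-targeting mice. Ugt3a1 was at 2.9, 3.34 and 1.71 TPM in the CRISPRi mice, against 3.83, 8.17 and 3.35 TPM in the non-targeting mice. In both genes CRISPRi mouse 3 was the lowest and non-targeting mouse 2 stood well above the rest, while the remaining mice nearly met. By limma, Ugt3a2 had a log2 fold change of -0.74 (SE 0.33, adjusted p = 0.381) and Ugt3a1 one of -0.69 (SE 0.31, adjusted p = 0.384). Without non-targeting mouse 2 these were -0.43 and -0.36. The coding sequences of the pair were 93.3% identical, yet 79.7% of the words of Ugt3a2 and 78.1% of those of Ugt3a1 occurred in no other gene. The ratio of Ugt3a1 to Ugt3a2 was 0.12 to 0.134 in the CRISPRi mice and 0.126 to 0.154 in the non-targeting mice, so the pair kept close to the same proportion in all 6 libraries.

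Ugt1a1 is the enzyme that conjugates bilirubin, and its loss in human causes the Crigler-Najjar syndrome. It was at 164, 149 and 152 TPM in the CRISPRi mice, against 155, 164 and 106 TPM in the non-targeting mice. The other libraries lay close together and non-targeting mouse 3 was low. The means were 155 ± 7.82 TPM in CRISPRi mice and 141 ± 31.2 TPM in non-targeting mice (SD, n = 3 each), with a log2 fold change of 0.16 (SE 0.19, 95% interval -0.28 to 0.60, limma adjusted p = 0.673). The sign turned with median-of-ratios scaling (-0.05) and without non-targeting mouse 3 (-0.04). As the junction sequences shown above imply, many of its words, 58.5%, were shared with other UGT genes, and only 18.7% were its own. The remaining 22.7% were shared with a gene that has no UGT symbol. Of such genes Gm20528 shared most with Ugt1a1, as it did with the other Ugt1a genes. Gm20528 therefore carries stretches of the sequence of these transcripts. How reads were divided between it and Ugt1a1 was not tested.

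Ugt1a6a conjugates planar phenols. It was at 6.36, 7.52 and 1.78 TPM in the CRISPRi mice, against 6.98, 0.415 and 0.982 TPM in the non-targeting mice. CRISPRi mouse 3 was low and non-targeting mouse 1 was high, and the groups overlapped. The log2 fold change of 0.99 had an SE of 0.65 (95% interval -0.50 to 2.47, limma adjusted p = 0.468), the widest interval of the family. Leaving out non-targeting mouse 1 gave 1.74 and leaving out non-targeting mouse 2 gave 0.49, while 1.49 was found when CRISPRi mouse 3 was dropped. Only 2.24% of its words occurred in no other gene.

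Most reads of Ugt1a6a could therefore not be told from those of transcripts with the same or nearly the same coding sequence. A transcript filed under the symbol Ugt1a7c, ENSMUST00000113135, had a coding sequence identical to that of Ugt1a6a over its 1596 bases, and it carried 95.8% of the words of Ugt1a6a. Its level was 40.4, 45.4 and 41.3 TPM in the CRISPRi mice, against 44.4, 58.7 and 44.8 TPM in the non-targeting mice. Ugt1a6b, whose coding sequence is 98.4% identical to that of Ugt1a6a, was at 23.5, 22.3 and 25.6 TPM in the CRISPRi mice, against 20.4, 15.5 and 10.7 TPM in the non-targeting mice. Taken alone, Ugt1a6b was higher in every CRISPRi mouse (log2 fold change 0.62, SE 0.23, limma adjusted p = 0.344). The sum of Ugt1a6a, Ugt1a6b and that transcript was 70.3, 75.2 and 68.6 TPM in the CRISPRi mice, against 71.8, 74.6 and 56.5 TPM in the non-targeting mice. In the sum the groups overlapped, and only non-targeting mouse 3 was lower than the rest.

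**Figure D3:**
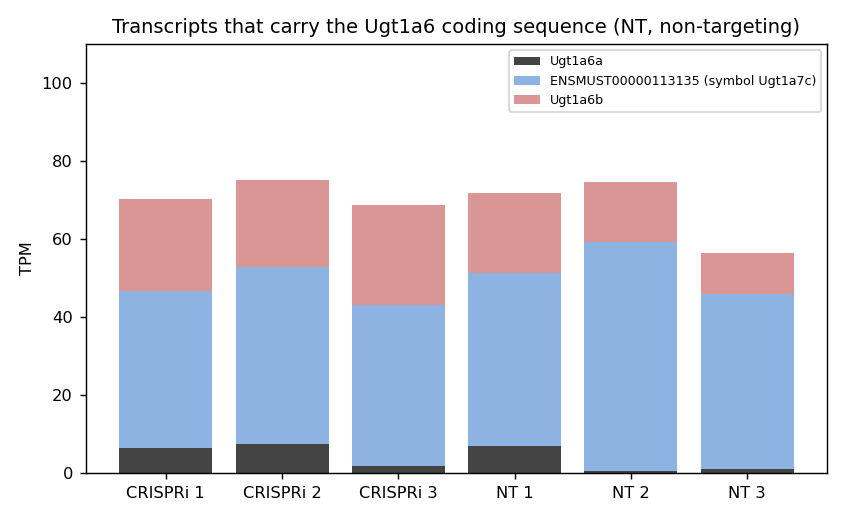
Stacked TPM in each library of the 3 sources of the Ugt1a6 coding sequence, Ugt1a6a (dark), ENSMUST00000113135, filed under Ugt1a7c (blue), and Ugt1a6b (red), with Neurl1b CRISPRi mice on the left and non-targeting mice (NT) on the right. Ugt1a6a is the thinnest layer, at 0.415 to 7.52 TPM, while the stacks reach 56.5 to 75.2 TPM.

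**Figure D4:**
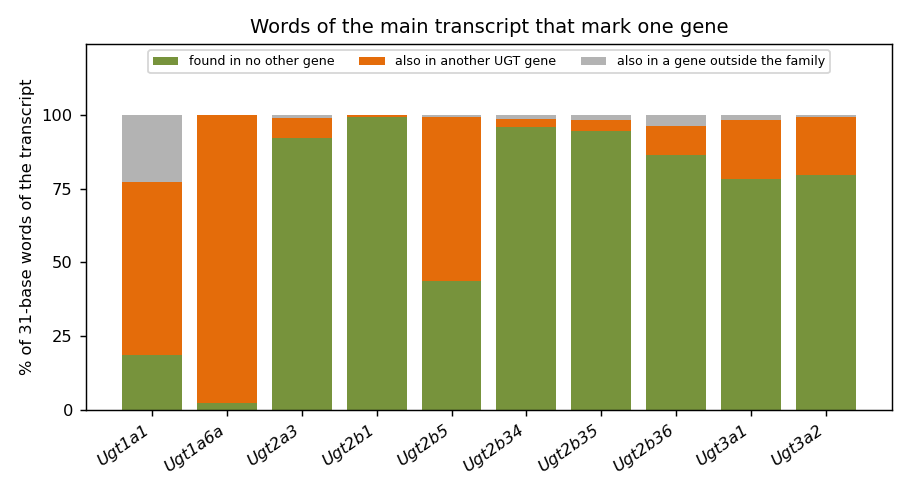
Percentage of the 31-base words of each member's main transcript that occur in no other gene (green), also in another UGT gene (orange) or also in a gene without a UGT symbol (grey). The green part is 2.24% for Ugt1a6a, 18.7% for Ugt1a1 and 43.6% for Ugt2b5, against 99.2% for Ugt2b1.

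Of the 12 other UGT symbols, 4 reached a mean of 1 TPM, all of them in the Ugt1a locus. Ugt1a5 differed most. It was at 4.25, 5.48 and 3.06 TPM in the CRISPRi mice, against 11.3, 19.6 and 9.4 TPM in the non-targeting mice. The groups were clearly apart, with a mean 3.15-fold higher in non-targeting mice and a log2 fold change of -1.42 (SE 0.29, limma adjusted p = 0.259). Only 34.7% of the 31-base words of Ugt1a5 were its own, and 65.1% were shared with other UGT genes. Its level therefore depends in part on how shared reads were divided. The ratio of Ugt1a5 to Ugt1a1, which share their later exons, was 0.0259, 0.0367 and 0.0201 in the CRISPRi mice, against 0.0729, 0.12 and 0.089 in the non-targeting mice. Ugt1a9 was at 158, 114 and 99.7 TPM in the CRISPRi mice, against 104, 117 and 116 TPM in the non-targeting mice, a log2 fold change of 0.12 (SE 0.20, adjusted p = 0.753). Ugt1a7c, nearly all of whose signal came from the transcript described above except in non-targeting mouse 3, had a log2 fold change of -0.36 (SE 0.18, adjusted p = 0.399). All genes of the Ugt1a locus together gave 398, 346 and 327 TPM in the CRISPRi mice, against 343, 375 and 308 TPM in the non-targeting mice, with overlapping groups.

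The make-up of the pool was dominated by the same genes in every library. Ugt2b5, Ugt2b34, Ugt2b36 and Ugt1a1 together held 80.7% to 84.3% of the summed TPM of the 10 members in the CRISPRi mice and 78% to 82.1% in the non-targeting mice. Ugt2b1 held 0.854%, 1.45% and 0.999% in the CRISPRi mice, against 1.89%, 4.3% and 3.64% in the non-targeting mice. Ugt2b34 held 17.2% to 19.1% in the CRISPRi mice and 11.6% to 16.5% in the non-targeting mice, and Ugt2b35 held 9.4% to 12.1% in the CRISPRi mice and 6.31% to 8.97% in the non-targeting mice. These shares of Ugt2b34 and Ugt2b35 were higher, and those of Ugt2b1, Ugt3a1 and Ugt3a2 lower, in every CRISPRi mouse than in any non-targeting mouse. The shares of the remaining 5 members overlapped. No test was made of the shares, which sum to a fixed total and so are not independent.

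**Figure D5:**
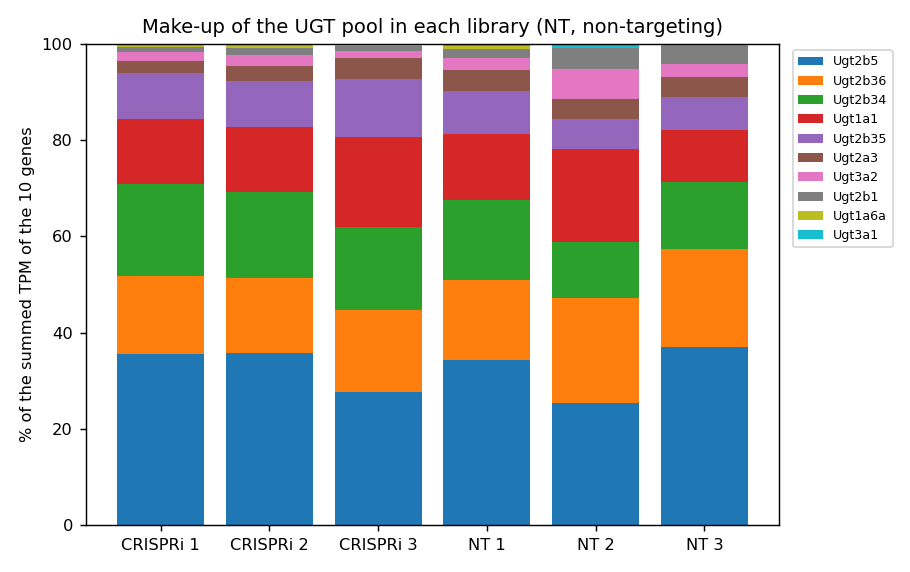
Percentage of the summed TPM of the 10 members held by each gene in each library, with Neurl1b CRISPRi mice on the left and non-targeting mice (NT) on the right. The grey Ugt2b1 layer is 0.854% to 1.45% in CRISPRi mice and 1.89% to 4.3% in non-targeting mice, and Ugt2b5 is the widest layer throughout.

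The order of the levels per transcript length was nearly the same in the 2 groups. In the CRISPRi mice it ran Ugt2b5, Ugt2b34, Ugt2b36, Ugt1a1, Ugt2b35, Ugt2a3, Ugt3a2, Ugt2b1, Ugt1a6a and Ugt3a1. In the non-targeting mice Ugt2b36 and Ugt1a1 stood above Ugt2b34, and Ugt3a1 above Ugt1a6a. Among neighbours in the CRISPRi mice, the ranges of Ugt1a1 and Ugt2b35, of Ugt2b35 and Ugt2a3, of Ugt2a3 and Ugt3a2 and of Ugt2b1 and Ugt1a6a did not overlap, and those of the others did. In the non-targeting mice the ranges were separate between Ugt2b5 and Ugt2b36, Ugt2b36 and Ugt1a1, Ugt2b35 and Ugt2a3, and Ugt2b1 and Ugt3a1. Ugt2b1 and Ugt3a2 had overlapping ranges in both groups, with means of 11.5 and 20.9 TPM in the CRISPRi mice and 31.2 and 35.9 TPM in the non-targeting mice. Ugt2b1 was below Ugt3a2 in every CRISPRi mouse.

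Single mice gave the family much of its spread. Non-targeting mouse 2 had the highest value of all 6 libraries for Ugt2b1, Ugt3a1 and Ugt3a2 and the lowest for Ugt1a6a, Ugt2b5, Ugt2b34 and Ugt2b35. CRISPRi mouse 3 was the lowest for Ugt2b1, Ugt2b36, Ugt3a1 and Ugt3a2, and CRISPRi mouse 1 the highest for Ugt2b5, Ugt2b34 and Ugt2b35.

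Glucuronidation needs UDP-glucuronate, which is made from glucose 1-phosphate. Of 12 genes of this supply tested, 0 passed the adjusted threshold. The log2 fold change was above 0 in 11 of them, as it was in 7846 of all 10598 genes tested. At an unadjusted p below 0.05, 3 were higher (10.1% of all genes were). Ugdh, the UDP-glucose dehydrogenase that makes UDP-glucuronate, was at 597, 600 and 607 TPM in the CRISPRi mice, against 633, 190 and 280 TPM in the non-targeting mice. The CRISPRi mice were nearly equal, and non-targeting mouse 1 was above all of them while non-targeting mice 2 and 3 were far below. The log2 fold change of Ugdh was 0.89 (limma adjusted p = 0.368), with 0.51 without non-targeting mouse 2 and 1.38 (adjusted p = 0.0173) without non-targeting mouse 1. Ugp2, which makes UDP-glucose, was at 383, 400 and 430 TPM in the CRISPRi mice, against 381, 203 and 246 TPM in the non-targeting mice (log2 fold change 0.59, SE 0.23, limma adjusted p = 0.351). Pgm1 (phosphoglucomutase) had a log2 fold change of 0.64 (adjusted p = 0.367), and Slc35d1, a carrier of UDP-sugars into the endoplasmic reticulum, one of 0.41 (adjusted p = 0.394). In all 4 genes non-targeting mouse 1 was at or near the CRISPRi level. Of the 4 genes tested for hydrolysis of glucuronides or their binding partners, Ces1e, a carboxylesterase of the kind that holds the glucuronidase Gusb in the endoplasmic reticulum, was at 7.23 ± 1.08 TPM in CRISPRi mice and 11.5 ± 1.12 TPM in non-targeting mice (log2 fold change -0.61, adjusted p = 0.323). Gusb was at 15.7 to 16.9 TPM in the CRISPRi mice and 13.7 to 14.5 TPM in the non-targeting mice (log2 fold change 0.21, adjusted p = 0.504). Abhd10 had a log2 fold change of 0.58 (adjusted p = 0.415) and Ces1f one of -0.09 (adjusted p = 0.837).

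Of 11 carriers of conjugates and bile acids tested, 0 passed the adjusted threshold. At an unadjusted p below 0.05, 3 were lower and 3 higher, against 3.19% of all genes lower and 10.1% higher. The groups did not overlap in 7 carriers, 5 of them lower (4.57% of all genes) and 2 higher (12.5%). The 4 with the smallest p are named. Abcc3, which exports glucuronides to the blood, was at 159, 146 and 136 TPM in the CRISPRi mice, against 114, 63.7 and 89.5 TPM in the non-targeting mice (log2 fold change 0.75, SE 0.22, limma adjusted p = 0.323). Abcc4, another exporter of the blood side, had a log2 fold change of 1.02 (adjusted p = 0.339). Slc10a1, the main importer of bile acids, was at 50, 44.8 and 48.2 TPM in the CRISPRi mice, against 73.5, 91.8 and 70.5 TPM in the non-targeting mice (log2 fold change -0.70, SE 0.16, adjusted p = 0.31). Slc22a7, an importer of organic anions, had a log2 fold change of -1.14 (adjusted p = 0.332). In each of these 4 genes, taken for their small p, the groups did not overlap.

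Of 19 genes tested for factors that control UGT genes, 0 passed the adjusted threshold. At an unadjusted p below 0.05, 1 was lower and 1 higher, against 3.19% of all genes lower and 10.1% higher. The lower gene, the liver transcription factor Onecut1, was at 0.677, 0.659 and 0.524 TPM in the CRISPRi mice, against 0.981, 2.08 and 1.99 TPM in the non-targeting mice. It reached a mean of 1 TPM only through the non-targeting mice, so its place among the genes tested is not independent of its difference. Nfe2l2, which encodes the oxidative stress factor NRF2, was at 42 ± 4.37 TPM in CRISPRi mice and 27.6 ± 9.65 TPM in non-targeting mice (log2 fold change 0.64, limma adjusted p = 0.352). Nr1i2 (the xenobiotic receptor PXR) had a log2 fold change of 0.49 (adjusted p = 0.404) and Ahr (the aryl hydrocarbon receptor) one of 0.52 (adjusted p = 0.436). Genes known as targets of CAR, PXR, AhR or NRF2 had a median log2 fold change of 0.81 over 13 tested, against 0.18 for all genes. At an unadjusted p below 0.05, 7 of them were higher, against 10.1% of all genes, and 0 passed the adjusted threshold. Among them Cyp1a1, an AhR target, was at 17.7, 15.6 and 10.5 TPM in the CRISPRi mice, against 11.6, 1.55 and 4.71 TPM in the non-targeting mice. Abcb1a (log2 fold change 0.93, adjusted p = 0.332), Nqo1 (1.10, adjusted p = 0.344) and Gstm1 (0.51, adjusted p = 0.355) were the others with the smallest p. Cyp1a1 had a log2 fold change of 1.42, and 0.85 without non-targeting mouse 2. In 3 well-known targets of the list, added here after their values were seen, the groups overlapped, with log2 fold changes of -0.17 for Cyp3a11, 0.10 for Cyp1a2 and 0.94 for Cyp2b10. Non-targeting mouse 1 overlapped the CRISPRi mice in Cyp1a1 and Nqo1 and lay below them in Abcb1a and Gstm1.

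Bilirubin, the substrate of Ugt1a1, comes from heme. Of 9 genes listed for this route, 5 were higher and 1 lower at an unadjusted p below 0.05, against 10.1% of all genes higher and 3.19% lower. The higher ones include Abcc3, already counted among the carriers above, so the lists are not separate. None of the 9 passed the adjusted threshold, and their median log2 fold change was 0.51 against 0.18 for all genes. Hmox1, the heme oxygenase that opens the heme ring, was at 154, 154 and 121 TPM in the CRISPRi mice, against 125, 13.5 and 31.6 TPM in the non-targeting mice (log2 fold change 1.87, SE 0.65, limma adjusted p = 0.344). The groups overlapped, and the value was 1.15 without non-targeting mouse 2 and 2.72 (adjusted p = 0.0173) without non-targeting mouse 1. Blvrb, a biliverdin reductase, was at 1054 ± 182 TPM in CRISPRi mice and 578 ± 228 TPM in non-targeting mice (log2 fold change 0.94, adjusted p = 0.339). Fabp1, a fatty acid binding protein that also binds heme, was at 2348, 2365 and 1186 TPM in the CRISPRi mice, against 4184, 7983 and 8869 TPM in the non-targeting mice (log2 fold change -1.83, SE 0.35, adjusted p = 0.259).

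The other conjugating families gave a background for the UGTs. Among 13 sulfotransferases tested, 3 were lower and 1 higher at an unadjusted p below 0.05, against 3.19% of all genes lower and 10.1% higher, with a median log2 fold change of -0.11. The lower ones were Sult2a1 (-2.12, limma adjusted p = 0.247), Sult2a5 (-1.81, adjusted p = 0.216) and Sult2a8 (-1.67, adjusted p = 0.259), which belong to the subfamily that sulfates steroids and bile acids, and Sult1e1, the estrogen sulfotransferase, was at 5.17, 6.67 and 63.9 TPM in the CRISPRi mice, against 6.31, 2.71 and 0.914 TPM in the non-targeting mice. The log2 fold change of Sult1e1 was 1.96, and 0.88 without CRISPRi mouse 3. Among 23 glutathione S-transferases tested, 9 were higher and 0 lower at this p, with a median of 0.47 against 0.18 for all genes. Those with the smallest p were Mgst2 (1.43, adjusted p = 0.323), Gstp3 (2.21, adjusted p = 0.323), Gstt2 (0.65, adjusted p = 0.345) and Gsta4 (0.76, adjusted p = 0.351). No member of these families passed the adjusted threshold, and the families were not tested against each other.

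Among 5114 genes outside the family with a mean of at least 10 TPM, those whose log2 levels followed Ugt2b1 most closely over the 6 libraries were Cyp2c54 (Pearson r = 0.998), Cyp2c40 (0.996), Zap70 (0.983), Cyp2j5 (0.980) and Cyp4f14 (0.979). The libraries share the difference between the groups, and the closest of so many genes are bound to be close over 6 points, so these values are a description. Cyp2c54, Cyp2c40 and Cyp2j5 had means of only 4.44, 5.87 and 8.64 TPM in the CRISPRi mice. They reached a mean of 10 TPM only through the non-targeting mice, so their place in the list is not independent of their difference. Of the genes named, 4 encode cytochrome P450 enzymes. Cyp2c54 was at 3.63, 7.18 and 2.52 TPM in the CRISPRi mice, against 10.2, 24.2 and 20.7 TPM in the non-targeting mice. As in Ugt2b1, the lowest library was CRISPRi mouse 3 and the highest was non-targeting mouse 2, which so high a correlation makes likely. Zap70, which encodes a kinase known from T cells, was at 14.5 to 31 TPM in the CRISPRi mice and 29.4 to 51.6 TPM in the non-targeting mice, although the 8 lymphocyte markers together reached 1.43 to 3.31 TPM in the CRISPRi mice and 2.53 to 3.56 TPM in the non-targeting mice. The summed TPM of the members was followed most closely by H4c8 (0.979), Dnajb2 (0.977), Btf3-ps18 (0.974), Cyp4a12a (0.970) and Alg3 (0.967), all with overlapping groups.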

How the data were processed

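TRAP-seq values of 6 mouse liver libraries were deposited by the authors as TPM per transcript in a table of the whole series. The submitters' processing notes name kallisto and the build mm39. Versions, transcript set and filters were not stated. kallisto divides reads between like transcripts by estimation, and TPM are shares, so a few abundant genes move all others.

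Groups and mouse numbers came from the sample titles, and each library is a separate mouse, so p-values measure the spread between mice. Transcripts were summed per symbol. Genes whose mean reached 1 TPM (10598 of the 21941 above 0 in any library) were tested with limma 3.58.1 in R 4.3.3 on log2(TPM + 1), Neurl1b CRISPRi minus non-targeting, with a trended prior, two-sided, and no covariate. Fold changes on this scale understate those of low genes. "-fold" values are ratios of mean TPM. The test was first checked on simulated data, drawn independently for each gene with the same spread in every library. That check does not cover differences of a whole library, such as those of non-targeting mouse 1. Same-numbered mice did not deviate together (correlations 0.061, -0.096 and -0.277 for mice 1 to 3), so numbers were not used as pairs.

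Named are all members, Neurl1b, up to 4 genes of each list with the smallest p, all other UGT genes with a mean of 1 TPM, and the 5 genes most like Ugt2b1 and the member sum. The members, the gene lists and the tests were chosen with earlier results of these data known. Sequence words of 31 bases and coding sequences were taken from GENCODE vM21 (GRCm38), another build than the table's, and promoters from RefSeq (GRCm38.p6), with Biopython 1.88.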

Additional observations from a re-analysis of the deposited data

How the results depend on the processing

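Against 2 genes past an adjusted p of 0.05 in limma, 0 passed with a pseudocount of 5, with no filter, with quantile normalization and at the transcript level, 1 with a mean TPM of at least 5, 2210 with array weights, and 473 with median-of-ratios scaling and without non-targeting mouse 1. Leaving out each mouse in turn gave 0 (without non-targeting mouse 3) to 2673 (without non-targeting mouse 1). The count of UGT members past the adjusted threshold was 0. It became 3 with array weights (Ugt1a6a, Ugt2b1 and Ugt2b35), where 20.9% of all genes passed. It was 1 with median-of-ratios scaling and without non-targeting mouse 1 (Ugt2b1, against 4.48% of all genes). When each mouse was left out it was 0 to 2, the 2 being without non-targeting mouse 1 (25.3% of all genes). At an unadjusted p the count was 2, against 13.3% of all genes. It became 1 with no filter (9.72% of all genes), 4 with median-of-ratios scaling (13.1%) and 5 with quantile normalization (13.2%). With array weights it was 4 (42.2% of all genes). With median-of-ratios scaling and without non-targeting mouse 1 it was 7 (30.5%). Of 12 transcripts, 1 passed (9.76% of all transcripts). When each mouse was left out the count was 1 to 4, the 4 being without non-targeting mouse 1 (44.2% of all genes). With the mouse number as a replicate block, 4 members were past the unadjusted p (14% of all genes). At the adjusted p, 0 members and 2 of all genes passed. Where an arm is left with 2 mice, limma takes its spread from both arms. The cause of these shifts was not tested.

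The log2 ratio of the summed TPM stayed between -0.13 and 0.23, within the spread between mice. In 8 of the 10 members no alternative turned the sign. Ugt1a1 turned with median-of-ratios scaling (-0.05), without non-targeting mouse 3 (-0.04) and with that scaling and without non-targeting mouse 1 (-0.11). Ugt2b5 turned with median-of-ratios scaling (-0.10), without CRISPRi mouse 1 (-0.07), CRISPRi mouse 2 (-0.00084) or non-targeting mouse 2 (-0.15), and with that scaling and without non-targeting mouse 1 (-0.08). Leaving out each mouse in turn gave -0.04 to 0.28 for Ugt1a1 and -0.15 to 0.40 for Ugt2b5. Outside the members, Ugt1a9 turned with median-of-ratios scaling (-0.09), without CRISPRi mouse 1 (-0.07) and with that scaling and without non-targeting mouse 1 (-0.29), Ces1f without CRISPRi mouse 3 (0.10), and Gusb with that scaling and without non-targeting mouse 1 (-0.10). Over the mice left out in turn, Ugt1a9 lay between -0.07 and 0.26 and Ces1f between -0.28 and 0.10. TPM keep no depth, so the precision of low values such as those of Ugt1a6a and Ugt3a1 cannot be derived.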
